A study of Mus musculus with 9 samples.

Results

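The 9 genes described here encode the nuclear partners of β-catenin and 2 SOX factors of the intestinal crypt. They are the TCF/LEF genes Tcf7, Lef1, Tcf7l1 and Tcf7l2, the co-activator genes Bcl9, Bcl9l and Pygo2, and Sox4 and Sox9. They were taken by symbol from the deposited table of 24930 genes, and all 9 were in it. RNA came from mouse epithelium, described by the submitters as crypt cells, from 3 controls and from 2 mutant groups of 3 libraries each. Every group had a single library at each of days 8, 9 and 10. The days count from induction, and the induced allele of the mutant groups was a single gain-of-function allele of β-catenin. Set A is titled Bcathet (β-catenin allele alone) and set B is titled Cdx2het_Bcathet (β-catenin allele with a Cdx2 allele). The library names put CDX2HET on set A and not on set B, so which set carries the Cdx2 allele cannot be told from the labels. The labels give the control as control only, and they do not name the strain, age or sex of the mice, the driver of the induced allele or whether a library pooled animals. Whether each library is a different animal is not stated, so the p-values cover only the spread among libraries, which may be technical.

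In the canonical WNT pathway, β-catenin that escapes degradation enters the nucleus and binds TCF/LEF proteins, which sit on DNA through an HMG box and otherwise hold target genes down together with Groucho/TLE repressors. BCL9 and BCL9L link β-catenin to PYGO2, and this chain helps to activate transcription. TCF7L2 (TCF4) is the member on which the crypts of the mouse small intestine depend. SOX9, itself raised by WNT signalling, marks crypt base cells and is needed to form Paneth cells, and SOX4 acts in progenitors of secretory cells. Tcf7 and Lef1 are also classic genes of T cells, which lie within the intestinal epithelium, and both genes can give short proteins that lack the β-catenin binding part. A gene-level value does not separate those forms.

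The libraries were similar in scale and differed in makeup. Values are FPKM, fragments per kilobase of transcript scaled to library size, and they summed to 624923 to 755802 per library. Genes with 1 annotated transcript whose low values fell in a window set beforehand were taken to hold 1 fragment. On that assumption, 1 FPKM stood for about 16.4 to 18.3 fragments per kilobase of transcript. The window itself bounds this figure, so the fragment numbers given below are rough. Set B day 9 stood apart: along principal component 1, which held 43.5% of the variance, it lay at -19.1, beside the controls at -21.6 to -22.7, while the other 5 mutant libraries lay at 2.57 to 30.0. Its Xist level was 0.1 FPKM, against 27.0 to 39.4 in the other 8 libraries, and its summed level of 4 Y-linked genes was 41.7 FPKM, against at most 0.047. This is a male pattern, and that of the other 8 is female, so sex is mixed within set B. Set B day 9 thus came from another animal than the other 8. For several members and lists, values without set B day 9 are given too. Epcam, the epithelial adhesion gene that defines the tissue, was at 703 to 794 FPKM in all 9 libraries. Ctnnb1, the gene of β-catenin, was at 187 to 207 FPKM in the controls and at 211 to 239 in mutant libraries (log2 difference 0.22 ± 0.07 SE, limma adjusted p = 0.126); a gene-level value cannot show the altered allele, so this does not check the labels. Cdx2 was at 108 to 139 FPKM in the controls, 126 to 144 in set A and 178 to 196 in set B, and it rose in set B against control (0.64 ± 0.10, limma adjusted p = 0.0442).

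The sequences just upstream of the start sites of Lef1 and Tcf7l2 are shown because these were the members with the smallest p-values against control. They come from RefSeq on build GRCm38.p6, each 250 bases long, 5′ to 3′ on the strand of the gene. Of the 9 genes 7 had an entry, with 14 start sites in all. Sox9 and Bcl9l had none. The capitals mark a match to a TCF motif (CTTTGAA, or the same start with AT, TA or TT as its last pair) or a SOX motif (AACAATN, N being any base), searched on both strands. The TCF letters CTTTGTT on the opposite strand read AACAAAG, which some SOX factors also bind.

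Lef1, first start site, chr3:131110047-131110296, plus strand: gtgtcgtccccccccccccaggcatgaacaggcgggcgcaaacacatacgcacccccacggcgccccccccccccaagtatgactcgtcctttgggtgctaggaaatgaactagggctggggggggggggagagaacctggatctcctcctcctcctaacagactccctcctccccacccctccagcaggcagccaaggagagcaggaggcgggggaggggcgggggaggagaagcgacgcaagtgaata
Lef1, start site farthest downstream, chr3:131156044-131156293, plus strand: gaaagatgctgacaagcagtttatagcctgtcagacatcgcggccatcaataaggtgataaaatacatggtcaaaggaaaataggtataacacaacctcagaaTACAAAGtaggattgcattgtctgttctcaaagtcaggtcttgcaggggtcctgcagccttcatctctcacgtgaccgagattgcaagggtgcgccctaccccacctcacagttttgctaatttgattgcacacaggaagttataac
Tcf7l2, first start site, chr19:55741560-55741809, plus strand: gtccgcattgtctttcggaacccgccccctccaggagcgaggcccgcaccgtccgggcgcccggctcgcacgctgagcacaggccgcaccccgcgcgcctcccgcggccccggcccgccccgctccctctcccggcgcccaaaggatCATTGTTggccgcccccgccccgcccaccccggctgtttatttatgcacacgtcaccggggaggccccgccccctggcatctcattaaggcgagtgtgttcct
Tcf7l2, internal start site, chr19:55895071-55895320, plus strand: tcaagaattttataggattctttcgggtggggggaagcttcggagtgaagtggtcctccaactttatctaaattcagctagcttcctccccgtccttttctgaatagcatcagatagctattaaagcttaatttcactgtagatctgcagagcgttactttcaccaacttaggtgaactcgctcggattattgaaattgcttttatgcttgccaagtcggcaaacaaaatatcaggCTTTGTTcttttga

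Of the 4 Lef1 windows, the first and those 26 and 2494 bases downstream of it held neither motif. The one 45997 bases downstream had CTTTGTA on the opposite strand 147 bases before the start. The first Tcf7l2 window had AACAATG on the opposite strand 103 bases before the start, and the internal one, 153511 bases downstream of the first, had CTTTGTT 14 bases before it. Over the 14 windows of the members, 2 held a TCF match, while 14.8% of 32851 windows of the same length in the RefSeq table did. The SOX letters were in 9.39% of all windows. A match describes letters in a window and shows no binding, and the deposited values do not tell which start site a transcript used.

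Among the members, levels were compared per length on the FPKM scale. Pygo2, which encodes the PHD-finger co-activator, had a mean level of 24.2 ± 1.39 FPKM (SD, n = 9 libraries). Sox9 followed at 23.2 ± 3.18 and Sox4 at 21.8 ± 3.43, then Tcf7l2 at 15.9 ± 3.77, Bcl9l at 12.5 ± 1.75 and Bcl9 at 12.2 ± 0.71. Tcf7 lay at 7.57 ± 3.03 FPKM, Lef1 at 0.928 ± 0.855 and Tcf7l1 at 0.183 ± 0.0941. The gaps between Sox4 and Tcf7l2, between Bcl9 and Tcf7 and between Tcf7 and Lef1 were larger than the SD of either neighbour. The other 5 gaps between neighbours were within the larger SD, although Lef1 lay above Tcf7l1 in all 9 libraries. So 7 genes were at several FPKM or more in every library. The other 2, both of the TCF/LEF family, were lower, with Lef1 at 0.162 to 2.64 FPKM and Tcf7l1 at 0.0777 to 0.377.

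**Figure D1:**
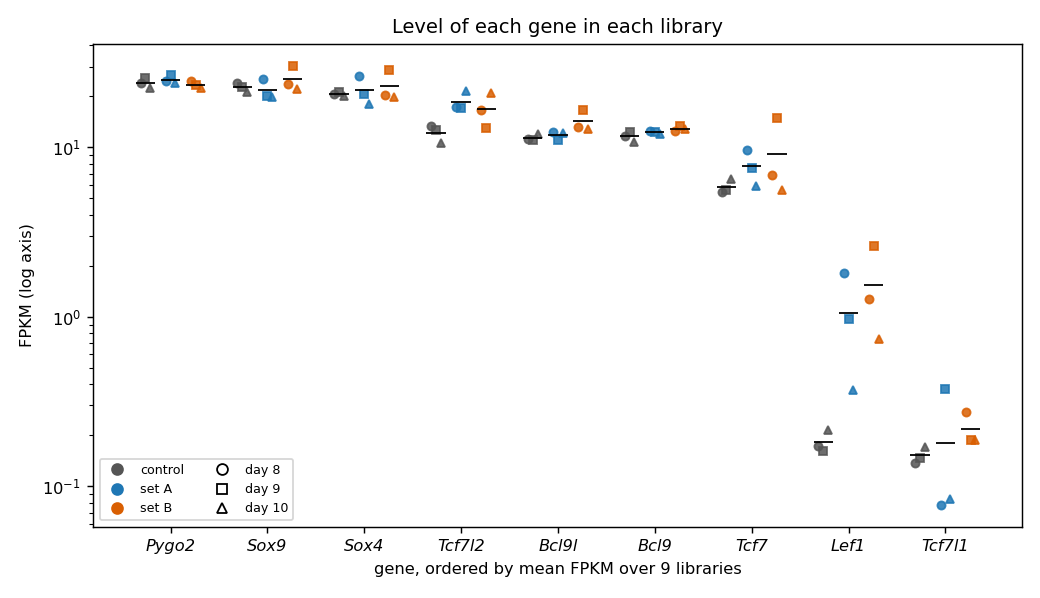
FPKM of the 9 genes (log axis) in each of the 9 libraries, with colour for the group, marker shape for the day and a bar at the mean of 3 libraries. Lef1 is at 0.162 to 0.214 in control and at 0.368 to 2.64 in the mutants, whereas the control and mutant ranges of every other gene overlap.

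Of the 12097 genes that reached 1 FPKM in 3 or more libraries, 140 genes (1.16%) passed an adjusted p of 0.05 for both mutant sets against control in limma, a linear model with a moderated spread. Fold changes from this model are on the log2(FPKM + 1) scale, which understates differences of low genes. Of the 9 members 8 entered the test, and 0 passed. Before adjustment 2 of the 8, Lef1 and Tcf7l2, had p under 0.05, as 21.0% of all tested genes did. All 8 fold changes were positive, with a median of 0.14 where the median over all tested genes was -0.0017. With set B day 9 left out, 7 members were tested, and 6 fold changes were positive and 1, that of Sox9, negative. No member passed in set A against control, where 0.215% of genes did, or in set B against control, where 0.628% did. The members with p under 0.05 before adjustment numbered 2 in set A and 3 in set B, and the shares over all tested genes were 16.7% and 16.5%. Tcf7l1 had less than 1 FPKM in every library and was not tested in this fit. Lef1 reached 1 FPKM in exactly 3 libraries, all mutant, so it entered the test through the group in which it was high.

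Lef1, which encodes lymphoid enhancer-binding factor 1 and is itself a known WNT target, had control values of 0.173, 0.162 and 0.214 FPKM on days 8, 9 and 10. In set A it was at 1.82, 0.966 and 0.368 FPKM on those days. In set B it was at 1.27, 2.64 and 0.740. All 6 mutant libraries lay above the 3 controls, a separation in this direction that 5.19% of tested genes had, and the lowest mutant values were the 2 of day 10. Mean Lef1 was 0.183 ± 0.0276 FPKM in control (n = 3) and 1.30 ± 0.818 in the mutants (n = 6), a ratio of 7.11, and of 5.65 without set B day 9. The difference on the log2(FPKM + 1) scale was 0.89 ± 0.27 (SE), which did not pass (limma adjusted p = 0.131). With a pseudocount of 0.1 it was 2.09 ± 0.51, and it did not pass either (limma adjusted p = 0.0817). Against the control library of the same day, Lef1 in set A was 10.5 times, 5.98 times and 1.72 times as high on days 8, 9 and 10. The same ratios in set B were 7.35, 16.3 and 3.46, each from 1 library per side and with no test. By the rough estimate above, on the longest annotated Lef1 transcript, the control values stood for about 10.8 to 14.2 fragments per library. The mutant values stood for about 22.1 to 173, so the control level rests on few reads. Without set B day 9, Lef1 reached 1 FPKM in too few libraries to be tested, and in a fit with no filter its log2 difference was 0.74 ± 0.22 (limma adjusted p = 0.111).

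Tcf7l2, which encodes the main TCF of the intestinal crypt, was at 13.4, 12.7 and 10.5 FPKM in control on days 8, 9 and 10. It was at 17.4, 17.0 and 21.5 FPKM in set A. It was at 16.6, 12.9 and 20.9 FPKM in set B. Set B day 9 lay inside the control range, and the other 5 mutant libraries lay above it, with the highest values on day 10 in both sets. The mean was 12.2 ± 1.47 FPKM for the controls against 17.7 ± 3.13 for the mutants, a ratio of 1.45. The log2 difference was 0.49 ± 0.15, which did not pass (limma adjusted p = 0.123). Without set B day 9, 8.29% of genes passed, and Tcf7l2 was the 1 tested member that did (log2 0.57 ± 0.12, limma adjusted p = 0.0298). With all 9 libraries kept and weighted by limma's estimate of their quality, 11.9% of genes passed, and Tcf7l2 was among them (0.50 ± 0.11, limma adjusted p = 0.0282). Lef1 had an adjusted p of 0.0300 in that limma fit (0.86 ± 0.20), which it too entered only through mutant libraries. For set B against control under the same weights, 16.8% of genes passed, with Tcf7l2 (limma adjusted p = 0.0317) and Lef1 (limma adjusted p = 0.0236) among them. In set A all 3 libraries lay above the controls, as 12.0% of tested genes did in that direction. By set, its log2 difference was 0.57 ± 0.17 in set A (limma adjusted p = 0.174) and 0.41 ± 0.17 in set B (limma adjusted p = 0.276).

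**Figure D2:**
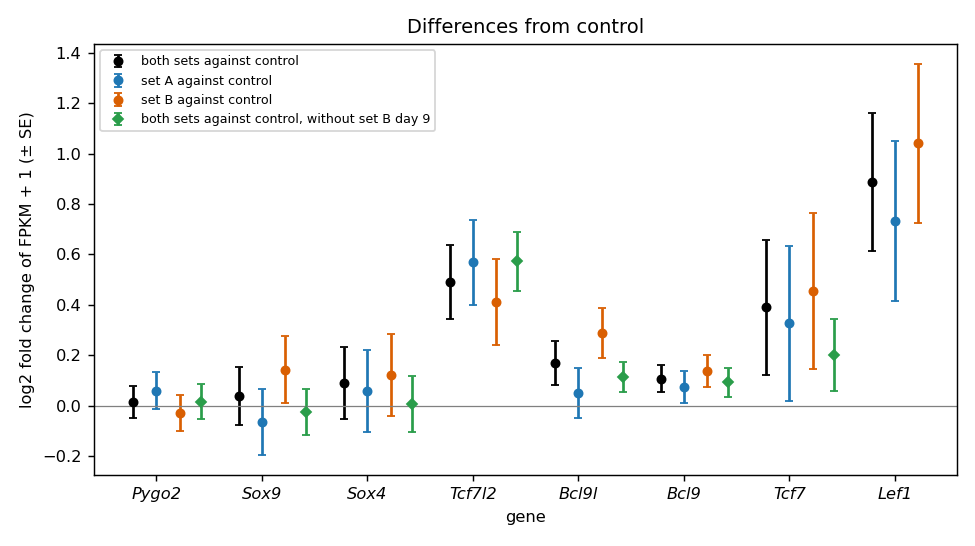
Log2 fold change of FPKM + 1 with its standard error for the 8 tested genes: both sets together, each set alone, and both sets without set B day 9, all against control. Lef1 has the highest estimate (0.89 ± 0.27), Tcf7l2 is at 0.49 in all libraries and at 0.57 without set B day 9, and Lef1 has no estimate in that fit.

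Tcf7, which encodes TCF1 and can act as an activator or, in its short form, as a repressor, was at 5.44, 5.63 and 6.55 FPKM in control on days 8, 9 and 10. It was at 9.69, 7.58 and 5.93 FPKM in set A. It was at 6.90, 14.8 and 5.63 FPKM in set B. Both day-10 mutant libraries lay inside the control range, and the other 4 lay above it. The mean was 5.87 ± 0.591 FPKM for the controls against 8.43 ± 3.45 for the mutants, and the log2 difference of 0.39 ± 0.27 did not pass (limma adjusted p = 0.444). Without set B day 9 it was 0.20 ± 0.14 (limma adjusted p = 0.400). Tcf7l1, which encodes TCF3, mostly a repressor, was at 0.138 to 0.171 FPKM in the controls, against 0.0777 to 0.377 in mutant libraries. By the rough estimate above, the mutant values stood for about 4.14 to 19.7 fragments per library. Set A fell on both sides of the controls, whereas set B, at 0.187 to 0.276 FPKM, lay above them. Such a separation was seen in 9.81% of tested genes in that direction, a share that does not include Tcf7l1 or other genes this low. In a fit with no filter its log2 difference in set B against control was 0.08 ± 0.09 (limma adjusted p = 0.746). At so low a level, a difference in Tcf7l1 would be hard to detect. Its exons overlap those of Gm15401 on the other strand, at 0.243 to 0.663 FPKM, and whether the authors' counting used strand is not given in the sources used here, so its low values are uncertain.

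The summed FPKM of the TCF/LEF genes was higher in every mutant library than in any control. It was 17.5 to 19.1 FPKM in the controls, against 25.0 to 30.6 in mutant libraries (means 18.4 ± 0.843, n = 3, and 27.6 ± 2.01, n = 6). This sum over chosen genes is a description and was not tested. Its parts differed between libraries. Tcf7l2 made up 60.3% to 69.9% of the sum in control, 77.1% and 76.1% in the day-10 libraries of sets A and B, and 42.3% in set B day 9. Tcf7 made up 48.5% of the sum in set B day 9, the only library of the 9 in which it exceeded Tcf7l2, and 20.5% to 37.5% in the other 8. Lef1 made up 0.866% to 1.23% in control and 1.32% to 8.62% in the mutants. The sum in set B day 9, 30.6 FPKM, was thus high through Tcf7 and Lef1, and the sums of day 10 through Tcf7l2.

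**Figure D3:**
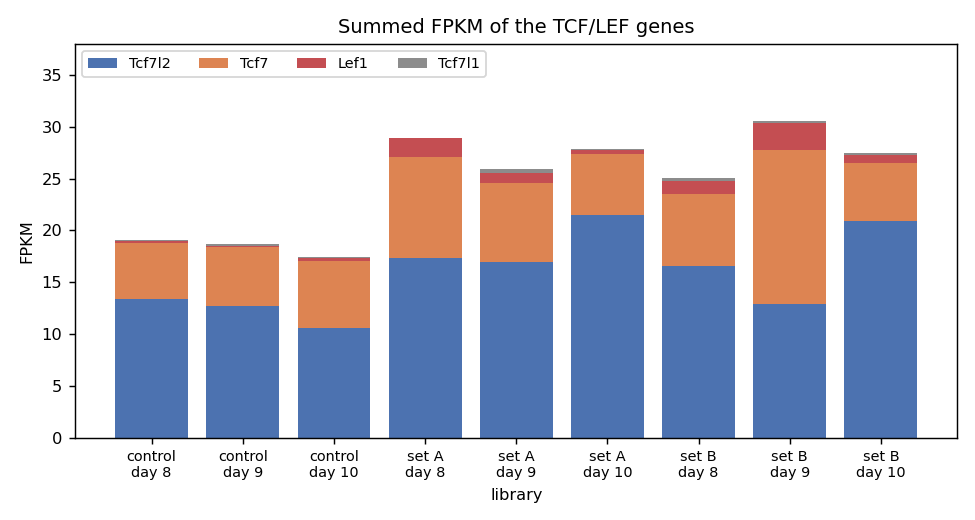
Stacked bars of the FPKM of Tcf7l2, Tcf7, Lef1 and Tcf7l1 in each library. Every mutant bar (25.0 to 30.6 FPKM) is taller than every control bar (17.5 to 19.1), and set B day 9 has the largest part from Tcf7.

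The co-activators differed little. Bcl9, the adaptor that binds β-catenin, was at 11.7, 12.3 and 10.8 FPKM in control on days 8, 9 and 10, at 12.0 to 12.4 in set A and at 12.4 to 13.4 in set B. Every set B library lay above every control library, a separation that 9.81% of tested genes had in that direction. Set A overlapped the controls. Its log2 difference for both sets was 0.11 ± 0.05 (limma adjusted p = 0.298). Bcl9l, its paralog, was at 11.2, 11.01 and 12.0 FPKM in control on the same days. It was at 12.4, 11.1 and 12.1 FPKM in set A. It was at 13.2, 16.7 and 12.8 FPKM in set B, with set B day 9 the highest. All 3 lay above control, as for the same 9.81% of tested genes. The log2 difference of Bcl9l in set B against control was 0.29 ± 0.10, with p under 0.05 before adjustment and not after it (limma adjusted p = 0.205). Without set B day 9 it was 0.18 ± 0.075 (limma adjusted p = 0.200). In set A, with all libraries, it was 0.05 ± 0.10 (limma adjusted p = 0.833). Pygo2 was at 22.3 to 25.8 FPKM in the controls, against 22.5 to 26.6 in mutant libraries, so the groups overlapped, and its log2 difference was 0.02 ± 0.06 (limma adjusted p = 0.911).

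Sox9, the crypt base and Paneth cell factor, was at 23.9, 22.9 and 21.2 FPKM in control on days 8, 9 and 10. It was at 25.2, 20.2 and 19.7 FPKM in set A. It was at 23.7, 30.2 and 21.97 FPKM in set B. The groups overlapped, and set B day 9 was the highest library of all 9. The log2 difference for both sets was 0.04 ± 0.11 (limma adjusted p = 0.873), and without set B day 9 it was -0.03 ± 0.09 (limma adjusted p = 0.886). Sox4, the secretory progenitor factor, was at 20.7, 21.1 and 20.2 FPKM in control. Set A had 26.5, 20.8 and 18.1 FPKM of Sox4. Set B had 20.4, 28.6 and 19.7, so the groups overlapped. Its log2 difference was 0.09 ± 0.14 (limma adjusted p = 0.755), and without set B day 9 it was 0.01 ± 0.11 (limma adjusted p = 0.976). For Sox4 and Sox9 the mutant libraries, both sets together and with set B day 9, spread more than the controls. The coefficient of variation of Sox4 was 2.40% over 3 controls and 18.8% over 6 mutants, and that of Sox9 was 5.97% and 16.5%. Among the members only Bcl9 and Pygo2 spread less in the mutants (3.71% and 5.62%) than in the controls (6.43% and 7.20%). Beside Sox4, tuft cell markers summed to 34.6 to 70.7 FPKM over the controls and 11.5 to 53.1 over the mutants, and enteroendocrine markers to 304 to 331 and 220 to 458. Of the tested markers, all 10 of tuft cells and 7 of 11 of enteroendocrine cells had negative fold changes, with medians of -0.67 and -0.05, and none passed in limma (1 and 3 had an unadjusted p under 0.05). The part of these cells in the Sox4 values was not tested. Sox4 and Bcl9l also share annotated exon bases with genes on the other strand, as Lef1 does, so a part of their values may belong to those genes.

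Set B against set A asks whether the second allele in the titles goes with a further difference. No member passed, and over all genes 0 of 12097 (0.00%) did in limma, with 376 at an unadjusted p under 0.05. Bcl9l was the 1 member with p under 0.05 before adjustment, as 3.11% of tested genes were, at 0.24 ± 0.10 higher in set B on the log2 scale (limma adjusted p = 1.00). Its difference without set B day 9 was 0.13 ± 0.075, with an unadjusted limma p of 0.133. Lef1 was 0.31 ± 0.32 higher in set B and Tcf7l2 was 0.16 ± 0.17 lower (log2 -0.16), both within their standard errors. Over the days, with the group held fixed, 0.00% of genes and no member passed in limma (0 of 8, with 0 at an unadjusted p under 0.05). The log2 slope per day was -0.23 ± 0.15 for Lef1, -0.10 ± 0.06 for Sox9, -0.10 ± 0.08 for Sox4 and 0.05 ± 0.09 for Tcf7l2, each with a limma adjusted p of 0.959 or 0.960.

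Markers of other cells were read beside Lef1 and Tcf7, since bulk RNA cannot tell more cells of a type from more RNA per cell. Of 23 T cell and intraepithelial lymphocyte markers 20 were in the table, and their summed FPKM was 101 to 162 in control and 33.9 to 133 in the mutants. The T cell receptor subunit gene Cd3e was at 2.40, 3.17 and 2.19 FPKM in the controls, with 1.92, 2.08 and 0.526 for set A and 1.32, 2.39 and 0.306 for set B. All 11 tested T cell markers had a negative fold change, and none passed in limma, with 1 at an unadjusted p under 0.05. The libraries with the highest Lef1, set B day 9 and set A day 8, had T cell marker sums of 126 and 110, within the control range. The lowest mutant values of Lef1 and Tcf7 and the lowest T cell marker sums (35.7 and 33.9) were both in the day-10 libraries.

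The sum of all 12 fibroblast markers was 6.96 to 8.29 FPKM in the controls, with 16.4, 18.2 and 4.11 for set A on days 8, 9 and 10, and 9.18, 25.9 and 5.61 in set B. The collagen gene Col1a1 was at most 0.0423 FPKM in the controls, against 0.0384 to 1.17 in mutant libraries. Pdgfra, which marks crypt mesenchyme, was at 0 in 2 control libraries and in set B day 10, and at most 0.087 FPKM anywhere. In both day-10 libraries the fibroblast sum lay below every control, and Lef1 was at 0.368 and 0.740 FPKM, above every control. The sum weighs abundant markers most. The median log2(FPKM + 1) of the 12 markers was 0.0169 to 0.0747 in the controls. Mutant medians on day 8 were 0.813 (set A) and 0.317 (set B). They were 1.17 and 1.18 on day 9, then 0.111 and 0.0744 on day 10, with set A first. Every mutant library of days 8 and 9 thus had a higher median than any control, and more Lef1 than either day-10 mutant library. Of 4 tested fibroblast markers 3 had positive fold changes and 1 negative (median 0.60). None passed in limma, with 1 at an unadjusted p under 0.05. Without set B day 9, 2 were tested, 1 positive and 1 negative. Macrophage markers summed to 5.25 to 5.88 FPKM in the controls, against 4.95 to 15.3 in mutant libraries, endothelial markers to 2.47 to 2.64 and 2.73 to 5.48, smooth muscle markers to 3.60 to 4.65 and 3.68 to 6.42, and the macrophage gene Adgre1 was at 0 in 2 control libraries. B and plasma cell markers summed to 2.76 to 5.35 and 3.18 to 4.84, and enteric glia markers to 0.465 to 0.629 and 0.450 to 0.857. The part of T cells, fibroblasts and these other cells in the Lef1 and Tcf7 values was not tested.

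**Figure D4:**
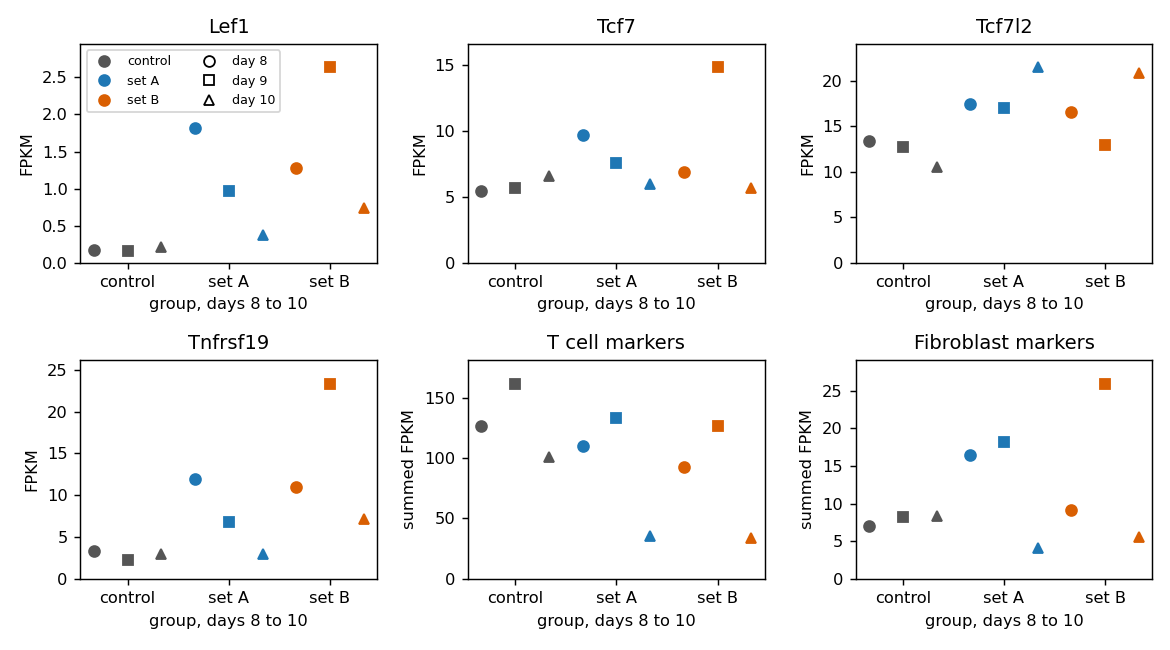
FPKM of Lef1, Tcf7, Tcf7l2 and the WNT target Tnfrsf19, and summed FPKM of the T cell and fibroblast markers, in each library (colour for the group, marker shape for the day, axes from 0). Lef1 and Tnfrsf19 share their highest library, set B day 9 (2.64 and 23.4 FPKM), whereas Tcf7l2 is highest on day 10 (21.5 and 20.9).

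The pathway around the members was read from fixed lists. Of 34 nuclear cofactors of β-catenin beyond the members, 29 were tested and none passed (6 had a limma p under 0.05 before adjustment, close to the 21.0% of all genes), with 9 positive and 20 negative fold changes and a median of -0.06. The 2 with the smallest p were Ssbp4, of the LDB-binding family that joins the WNT enhanceosome, at 48.3 ± 2.86 FPKM for the controls against 65.8 ± 8.05 for the mutants (log2 0.43 ± 0.11, limma adjusted p = 0.0885), and the kinase gene Hipk2, at 13.3 ± 1.00 and 10.1 ± 1.36 (-0.37 ± 0.11, limma adjusted p = 0.118). Without set B day 9, where 8.29% of all genes passed, 1 of the 29 passed as higher and 1 as lower, and they were Ssbp4 (adjusted p = 0.0134) and Hipk2 (adjusted p = 0.0233), both in limma. Of 18 other SOX genes only 3 were tested, and none passed or had a limma p under 0.05 before adjustment. Sox12 was at 0.751 to 1.08 FPKM in the controls, against 0.679 to 3.22 in mutant libraries, with set B day 9 the highest. Sox6 was at 2.58 to 3.49 and 2.20 to 2.95, and Sox13 differed by 0.11 ± 0.10 (limma adjusted p = 0.581).

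Among 25 WNT target genes beyond the members 20 were tested. Where 1.16% of all tested genes passed, 1 of the 20 did, Zfp703, a co-repressor gene. It rose from 54.1 ± 7.13 FPKM in control to 78.3 ± 5.53 in the mutants (log2 0.53 ± 0.10, limma adjusted p = 0.0474). Fold changes were positive for 16 of the 20 and the median was 0.33. Before adjustment 11 of the 20 had a limma p under 0.05, against 21.0% of all tested genes. Without set B day 9, where 8.29% of all genes passed, 6 passed as higher and 1 as lower, with a median of 0.28. The lower one was the cyclin gene Ccnd2 (log2 -1.67, limma adjusted p = 0.00266). With all libraries Ccnd2 was at -1.41 ± 0.35 and did not pass (limma adjusted p = 0.0874). Axin2, the feedback inhibitor, was at 34.2 to 41.0 FPKM in the controls, against 37.4 to 78.1 in mutant libraries (0.41 ± 0.20, limma adjusted p = 0.284). Without set B day 9 the log2 difference of Axin2 was 0.28 (limma adjusted p = 0.212). Its highest library was set B day 9 and its lowest mutant library was set A day 10, as for Lef1. Lgr5, the stem cell receptor gene, was at 9.48 to 11.4 FPKM in the controls, against 9.79 to 32.7 in mutant libraries, with the same 2 libraries at the ends. Its log2 difference was 0.73 ± 0.29 (limma adjusted p = 0.213), and 0.61 without set B day 9 (limma adjusted p = 0.218). Of 11 tested crypt base stem cell markers, Lgr5, Axin2 and Sox9 among them, none passed in limma. Their fold changes were 8 positive and 3 negative (median 0.04). Without set B day 9 they were 5 positive and 6 negative (median -0.03).

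Paneth cell genes, read beside Sox9, stood lower. Of 18 tested 8 passed as lower and none as higher, where 1.16% of all genes passed, with a median of -1.35. Before adjustment 14 had a limma p under 0.05, against 21.0% of all tested genes. Without set B day 9, where 8.29% of all genes passed, 11 passed as lower. Defa6 fell from 24.9 ± 7.71 FPKM to 7.13 ± 2.56 (log2 -1.69 ± 0.20, limma adjusted p = 0.0134) and Defa29 from 1134 ± 281 to 350 ± 89.3 (-1.70 ± 0.22, limma adjusted p = 0.0164). Defensin genes are close paralogs, so their single values are uncertain. Sox9 itself differed by 0.04 ± 0.11 in the same fit, and its groups overlapped.

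Genes whose pattern over the 9 libraries was most like that of a member were found by Pearson correlation of log2(FPKM + 1) among 8543 genes with a mean of at least 5 FPKM. The libraries share groups and days, so these values describe likeness and carry no test. They were computed only with set B day 9 included, the library in which Tcf7, Lef1, Sox4 and Sox9 were highest. Closest to Lef1 were Rnf149 (r = 0.991) and Tnfrsf19 (r = 0.981). Tnfrsf19, a WNT target that encodes the receptor TROY, was at 3.33, 2.26 and 2.98 FPKM in the controls, with 12.0, 6.80 and 3.00 for set A and 11.04, 23.4 and 7.16 for set B. Closest to Tcf7 were Rhbdf1 (r = 0.970), Tia1 (r = 0.933) and Slc16a11 (r = 0.933), and Tia1 (r = 0.952) and Slc16a11 (r = 0.946) also led for Sox4, followed by Shisa2 (r = 0.945). Closest to Sox9 were Repin1 (r = 0.952), Camk1 (r = 0.951) and Mmp15 (r = 0.940). Closest to Tcf7l2 were Mmp28 (r = 0.975), Prr13 (r = 0.975) and Lrrc1 (r = 0.975), each highest in the day-10 mutant libraries. Prr13 was at 218 to 277 FPKM in control, 488 and 454 on day 10 of sets A and B, and 286 in set B day 9. Among the members, Tcf7 and Lef1 correlated at r = 0.886 and Tcf7 and Sox4 at r = 0.898, while Tcf7l2 and Tcf7 stood at r = -0.17 over the same 9 libraries.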

How the data were processed

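Poly(A) RNA of mouse epithelium was sequenced as paired ends, per the labels' protocols. The deposited values are FPKM, a unit read from the values: they are not whole, column sums differ, and the lowest values step with transcript length. Per the submitters' processing notes, the tools include kallisto 0.46.1 and DESeq2 1.40.1 and the build is mm9, with no roles stated; annotation, strand and filters are not given here. The median ratio to the geometric mean was 1.00276 in every library (15138 genes), so library scaling had been done. RefSeq and GENCODE M21 (GRCm38) served for names, sequences, transcript lengths and overlaps only.

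Samples were grouped by title, with replicates 1, 2 and 3 as days 8, 9 and 10. The design allowed for counts or normalized values, and the latter applied. Limma 3.58.1 in R 4.3.3 fitted group means to log2(FPKM + 1) of 12097 genes (at least 1 FPKM in at least 3 libraries; trend and robust options), with Benjamini-Hochberg adjustment over all and a threshold of 0.05. The test was run on simulated data with the same groups and the spread of each gene (5 simulations, 12097 genes, 200 changed). It found 89% of genes with a log2 change of 1, and 5.79% of calls were false. Changed genes were drawn only from those with a mean log2(FPKM + 1) above 3, and noise was independent between libraries. The share found is therefore no measure for low genes such as Lef1, for smaller changes or for differences shared by a whole library. The day is a shared label, but deviations of same-day libraries correlated at -0.24 to 0.62, so the day as a block was an alternative.

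Members and lists were chosen with earlier results of these data known. Named were all members, Ctnnb1, Cdx2, defining markers of cell types, up to 4 passing genes per list (else the 2 with the smallest p) and the 3 genes most like each of 5 members, of which 1 is not reported here. Axin2, Lgr5, Ccnd2, Sox13 and the sex-linked genes were added after their values were seen. Alternatives were another pseudocount, other filters, the day as a block, weights per library, equal totals, fits to the compared groups and leaving out each library.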

Additional observations from a re-analysis of the deposited data

Results flagged for a closer look

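Bcl9l in set B day 9 lay far from the other mutant libraries. Its value of 16.7 FPKM stood above 11.1 to 13.2 FPKM in the other 5, and the gap to the nearest library was 0.630 of the whole range of the 6, just past the critical value of Dixon’s test for 6 libraries. Chance alone passes such a limit in about 1 of 20 groups, and 9 genes were examined. Set B day 9 is also the library that lay beside the controls on the first principal component.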

How the results depend on the processing

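No member passed in any of the 4 contrasts in the reported fit. With library weights 2 members passed for both sets against control and 2 for set B against control, Lef1 and Tcf7l2 in each, where 11.9% and 16.8% of all genes passed. Lef1 entered these fits only through mutant libraries. Without set B replicate 2 (day 9) 1 passed for both sets, Tcf7l2, and with no filter in addition, a setting chosen after seeing the data, again 1. Leaving out 1 library gave 0 to 1 members for both sets and 0 in the other contrasts. Under the remaining settings (a pseudocount of 0.1, no filter, 5 FPKM, equal totals, the day as a block with 0 members, compared groups only) the count was 0. Fitting only the groups compared does not apply to both sets against control, and DESeq2 was not run because the file holds no counts. Small differences of uncalled genes changed sign. With library weights, Sox4 was at -0.0028 in set B against control, and the difference of set B from set A was -0.094 for Sox4 and -0.16 for Tcf7. Leaving out 1 library, both sets against control ran from -0.035 to 0.065 for Pygo2 and from -0.026 to 0.085 for Sox9. Set A against control ran from -0.086 to 0.18 for Sox4, and set B against control from -0.079 to 0.021 for Pygo2 and from -0.043 to 0.22 for Sox4. Set B minus set A ran from -0.10 to 0.21 for Sox4, from -0.25 to 0.38 for Tcf7 and from -0.32 to 0.0080 for Tcf7l2. The cause was not tested. With equal totals the median of all genes for both sets against control moved from -0.0017 to 0.035. Depth limits Lef1 and Tcf7l1, whose control values stand for under 15 fragments per library by the rough estimate above.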
